A study of Mus musculus with 12 samples.

Results

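The genes studied here are 10 that modify, fold or crosslink collagen: Lox, Loxl1, Loxl2 and Loxl3, Plod1, Plod2 and Plod3, P4ha1 and P4ha2, and Serpinh1. They were taken by gene symbol from a count table of 24421 entries, and the list was chosen with earlier results of these data known. All 10 were among the 13937 genes that passed the filter on low counts. RNA was sequenced from the whole tibialis anterior, a fast hindlimb muscle, of male mice aged 4 months. The 6 WT libraries came from C57Bl/6 mice and the 6 mdx/mTR libraries from mice that carry the mdx allele of the dystrophin gene and the mTR allele of the telomerase RNA gene. No group with 1 of these 2 alleles was analysed here, so their effects cannot be told apart, and the number of generations bred without telomerase is not given in the sources used here. The labels number the libraries 1 to 6 in each group without stating that each is a separate animal, so p-values measure the spread between these libraries.

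Collagen chains are modified inside the endoplasmic reticulum before they leave the cell. Prolyl 4-hydroxylases hydroxylate proline residues, which stabilises the triple helix, and lysyl hydroxylases (the Plod genes) hydroxylate lysine residues, which sets the kind of crosslink that can form. The chaperone encoded by Serpinh1 binds the folded helix until it is exported. Outside the cell, enzymes of the lysyl oxidase family oxidise lysine and hydroxylysine residues of collagen and elastin, and the aldehydes so made form the covalent crosslinks of the fibre. Muscle that lacks dystrophin accumulates fibrillar collagen between its fibres, where fibroblasts are a main source of matrix.

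RefSeq promoter windows (GRCm38.p6, the build known as mm10) matched 5 of the 10 genes: Plod1, Plod3, P4ha1, P4ha2 and Serpinh1. The 250 bases before the RefSeq start are shown 5′ to 3′ on the strand of the gene for P4ha1, P4ha2 and Serpinh1. Matches to the core of the hypoxia response element (ACGTG, either strand) are in capitals. The windows shown lie at chr10:59323046-59323295 on the plus strand (P4ha1), chr11:54100674-54100923 on the plus strand (P4ha2) and chr7:99353240-99353489 on the minus strand (Serpinh1). For P4ha1 and Serpinh1 the RefSeq start is also the outermost start of the gene in GENCODE M21, the annotation used for the gene coordinates given later. For P4ha2 it is the start of 1 of 15 GENCODE transcripts, and 1 other starts 829 bases further upstream, so by that annotation the window lies inside the gene, in an intron of that transcript.
P4ha1: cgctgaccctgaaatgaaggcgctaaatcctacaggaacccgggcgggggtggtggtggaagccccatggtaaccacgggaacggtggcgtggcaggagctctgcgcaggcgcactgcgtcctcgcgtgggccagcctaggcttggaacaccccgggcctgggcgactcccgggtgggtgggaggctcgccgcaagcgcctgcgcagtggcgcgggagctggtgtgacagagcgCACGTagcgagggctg
P4ha2: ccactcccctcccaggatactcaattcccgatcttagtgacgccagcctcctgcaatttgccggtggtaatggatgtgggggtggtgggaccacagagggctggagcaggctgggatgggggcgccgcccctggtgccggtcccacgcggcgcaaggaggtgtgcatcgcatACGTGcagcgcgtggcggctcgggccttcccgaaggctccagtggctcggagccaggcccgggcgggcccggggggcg
Serpinh1: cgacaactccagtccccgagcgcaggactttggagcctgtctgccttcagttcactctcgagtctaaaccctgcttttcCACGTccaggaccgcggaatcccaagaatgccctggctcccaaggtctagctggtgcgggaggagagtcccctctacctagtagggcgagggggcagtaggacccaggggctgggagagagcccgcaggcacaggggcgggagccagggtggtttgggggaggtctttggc

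The match lay at bases -16 to -12 from the RefSeq start in P4ha1, at -78 to -74 in P4ha2 and at -171 to -167 in Serpinh1. ACGTG was also present in the Plod3 window, of which 208 bases lie in annotated exons of Znhit1, and was absent from that of Plod1. The windows of Plod3 and Plod1 are not shown, so every window shown above holds a match. Of all 32851 promoter windows of this length 16.6% held ACGTG, a share not matched for G and C content. The windows shown above were rich in G and C, at 69.6% for P4ha1, 70.0% for P4ha2 and 63.6% for Serpinh1. Whether the motif is more frequent in these genes was not tested. Motifs of AP-1 (TGANTCA), of the heat shock element (GAANNTTC) and of TEAD factors (GGAATG), searched on both strands, had no match in any of the 5 windows. They occur in 6.75%, 6.69% and 12.6% of all windows.

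The total count per library was 36903560 to 40981012 (WT) and 35136327 to 60330410 (mdx/mTR). Dmd, which carries the mdx allele, had a mean of 46.8 CPM (counts scaled to a fixed library size, scaled by the trimmed mean of M-values, TMM) in mdx/mTR and 237 CPM in WT, and the groups did not overlap. In edgeR's quasi-likelihood test with Benjamini-Hochberg adjustment, 48.3% of the tested genes had an adjusted p below 0.05, 25.0% of them higher and 23.4% lower in mdx/mTR as a share of all tested genes. That is 3479 higher and 3257 lower; with library totals alone as the scaling it was 5596 and 1560, since the median over all genes then moved to 0.17 from 0.01 (log2). The TMM scaling underlies each fold change given here, except where another scaling, method or source is named. In whole muscle, more cells of a type and more RNA per cell cannot be told apart.

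Of the 10 genes, 7 rose and 1 fell by this test, against the background of 25.0% and 23.4% just given. The 4 lysyl oxidases, 2 of the 3 lysyl hydroxylases (Plod2 and Plod3) and Serpinh1 rose, P4ha2 fell, and Plod1 and P4ha1 did not pass. Their median log2 fold change was 0.67, beside 0.01 over all tested genes. In 5 of them every mdx/mTR library lay above every WT library, which was the case for 12.6% of all tested genes, and in P4ha2 every mdx/mTR library lay below, again 12.6% of all tested genes. With mdx/mTR 5 and WT 2 both left out, 7 still rose and 1 fell.

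**Figure D1:**
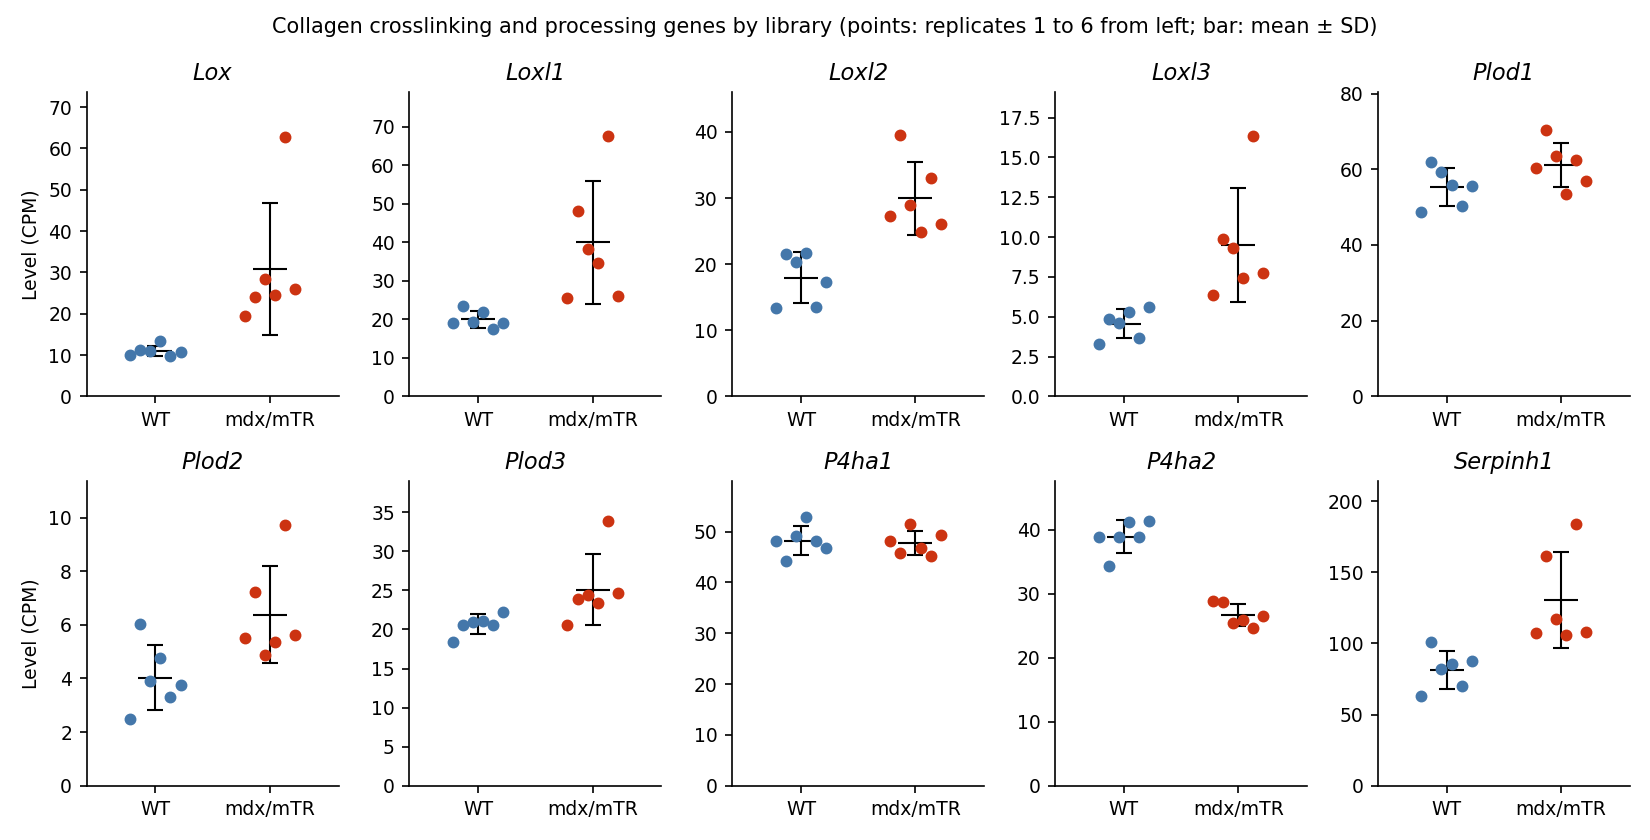
Level in CPM of each of the 10 genes in the 6 WT and 6 mdx/mTR libraries (points, replicates 1 to 6 from left to right), with mean and SD. The groups are apart for the 4 lysyl oxidases, Serpinh1 and P4ha2, overlap for the other 4 genes, and mdx/mTR 5 is the highest library for Lox at 62.8 CPM.

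Lox (chr18:52516067-52529867, minus strand, 7 exons in its longest coding transcript), the founding lysyl oxidase, rose the most. Its lowest, median and highest levels were 9.82, 10.8 and 13.4 CPM in WT and 19.3, 25.2 and 62.8 CPM in mdx/mTR. The lowest mdx/mTR library was thus above the highest WT library, and 1 library, mdx/mTR 5, stood far above the other 5, which reached 28.3 CPM. The mean went from 10.98 ± 1.29 to 30.8 ± 15.9 CPM (SD, n = 6 each), a log2 fold change of 1.49 ± 0.24 (SE, edgeR adjusted p 2.3e-04). Without mdx/mTR 5 the mdx/mTR mean was 24.4 ± 3.30 CPM (n = 5) and the log2 fold change 1.15 (edgeR adjusted p 2.2e-06).

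Loxl1 (chr9:58287738-58313186, minus strand), the family member best known for crosslinking elastin, had a lowest, median and highest level of 17.4, 19.2 and 23.4 CPM in WT and of 25.4, 36.4 and 67.7 CPM in mdx/mTR. The groups did not overlap, and mdx/mTR 1 and 6 were the libraries nearest to WT. Its mean went from 20.01 ± 2.19 to 39.96 ± 15.9 CPM, a log2 fold change of 0.998 with an SE of 0.205 (edgeR adjusted p 0.0013). Loxl3 (chr6:83034173-83052562, plus strand) was the least abundant of the 4, at 3.31 to 5.63 CPM in WT with a median of 4.75, and at 6.40 to 16.3 CPM in mdx/mTR with a median of 8.55. It rose by a log2 fold change of 1.06 ± 0.21 (SE, edgeR adjusted p 0.0011) with no overlap, and mdx/mTR 5 was again the highest library. Of its longest coding transcript, 13.1% of bases overlap exons of Htra2 on the opposite strand, and since strand handling is not given in the sources used here, reads of the 2 genes may not have been told apart.

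Loxl2 (chr14:69609068-69695834, plus strand), which acts on collagen IV of basement membranes among other substrates, had levels of 13.3 to 21.7 CPM in WT (median 18.9) and of 24.8 to 39.6 CPM in mdx/mTR (median 28.1). The groups did not overlap, and here mdx/mTR 2 rather than mdx/mTR 5 was the highest library. Its log2 fold change was 0.74 ± 0.15 (SE, edgeR adjusted p 0.0010). Its level is uncertain because 45.8% of the 50-base stretches of its longest coding transcript also occur in other transcripts, chiefly of Gm21451, annotated as a pseudogene. None of the other 9 genes shared any such stretch with another gene. Loxl4, the remaining lysyl oxidase gene of the mouse, was scarcer, with 1.88 ± 0.278 CPM in the WT group against 3.15 ± 0.394 CPM, and it also rose without overlap (log2 fold change 0.74 ± 0.13 SE, edgeR adjusted p 3.3e-04).

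Changes of the lysyl hydroxylases were smaller. Plod1 (chr4:147909753-147936767, minus strand), which hydroxylates lysines of the collagen helix, was the most abundant with means of 55.2 ± 5.08 CPM (WT) and 61.1 ± 5.85 CPM (mdx/mTR). The WT libraries spanned 48.6 to 61.9 CPM (median 55.7) and the mdx/mTR libraries 53.4 to 70.4 CPM (median 61.4), so the groups overlapped. Its log2 fold change of 0.15 ± 0.07 (SE) did not pass (edgeR adjusted p 0.112), with a 95% interval of -0.02 to 0.31. With library totals alone it passed, at 0.30 (edgeR adjusted p 0.0117).

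Plod2 (chr9:92542223-92608428, plus strand) hydroxylates the lysines of the telopeptides, the collagen ends from which the more stable hydroxylysine-derived crosslinks are made. It was scarce, with a lowest, median and highest level of 2.50, 3.82 and 6.03 CPM in WT and of 4.86, 5.56 and 9.73 CPM in mdx/mTR. The groups overlapped, with WT 2 above 4 of the 6 mdx/mTR libraries and mdx/mTR 5 the highest. Its log2 fold change was 0.66 ± 0.21 (SE, edgeR adjusted p 0.0173). Without mdx/mTR 5 the value was 0.50 (edgeR adjusted p 0.0372).

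Plod3 (chr5:136987019-136996648, plus strand), whose product also glucosylates galactosylated hydroxylysine, had levels of 18.4 to 22.3 CPM in WT (median 20.8) and of 20.5 to 33.9 CPM in mdx/mTR (median 24.1). Only mdx/mTR 5 stood well above the others, and the lowest mdx/mTR library was inside the WT range. The log2 fold change of 0.28 ± 0.10 (SE, edgeR adjusted p 0.0293) was the smallest that passed among the 10 genes. The call was lost without WT 1 (0.25, edgeR adjusted p 0.0658) and without WT 5 (0.28, edgeR adjusted p 0.0512), and the value fell to 0.17 without mdx/mTR 5 (edgeR adjusted p 0.0322). Exons of other genes, chiefly Znhit1 on the opposite strand, overlap 16.4% of its longest coding transcript.

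The catalytic subunits of prolyl 4-hydroxylase parted. P4ha1 (chr10:59323296-59373304, plus strand) was level, with a lowest, median and highest value of 44.2, 48.1 and 52.8 CPM in WT and of 45.3, 47.6 and 51.5 CPM in mdx/mTR. All 6 mdx/mTR libraries lay within the WT range. The log2 fold change was -0.01 ± 0.05 (SE, edgeR adjusted p 0.861), with a 95% interval of -0.12 to 0.10, and its sign was positive with scaling by the upper quartile (0.03) or by library totals alone (0.14, edgeR adjusted p 0.0190).

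P4ha2 (chr11:54100095-54131665, plus strand) was the only 1 of the 10 to fall, and it had the smallest p-value among them. Its levels were 34.4, 38.9 and 41.4 CPM (lowest, median and highest) in WT and 24.6, 26.2 and 28.9 CPM in mdx/mTR. The groups were narrow and did not overlap, with WT 2 the lowest of the WT libraries. The mean dropped from 38.9 ± 2.53 to 26.7 ± 1.76 CPM, a log2 fold change of -0.54 ± 0.06 (SE, edgeR adjusted p 7.9e-06). It stayed between -0.58 and -0.39 under all 21 alternatives, the latter with library totals alone (edgeR adjusted p 1.2e-04).

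The third catalytic subunit gene, P4ha3, was near the limit of detection in WT, with 2 to 23 counts per library, and had 23 to 137 counts in mdx/mTR. It rose by a log2 fold change of 2.15 ± 0.59 (SE, edgeR adjusted p 0.0085), but the groups overlapped and mdx/mTR 5 held 2.92 CPM against 0.401 to 1.04 CPM in the other 5. P4hb, which encodes the shared beta subunit, protein disulfide isomerase, went from 205 ± 9.06 to 238 ± 20.1 CPM (0.21 ± 0.06 SE, edgeR adjusted p 0.0086).

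Serpinh1 (chr7:99345376-99353239, minus strand), which encodes the collagen chaperone HSP47, was the most abundant of the 10 genes. Its lowest, median and highest levels were 63.2, 83.9 and 101 CPM in WT and 106, 113 and 184 CPM in mdx/mTR. The lowest mdx/mTR library was just above WT 2, the highest WT library, and mdx/mTR 2 and 5 stood above the other 4. The mean rose from 81.5 ± 13.4 to 131 ± 33.7 CPM, which is 0.68 ± 0.15 (SE) as a log2 fold change (edgeR adjusted p 0.0023).

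**Figure D2:**
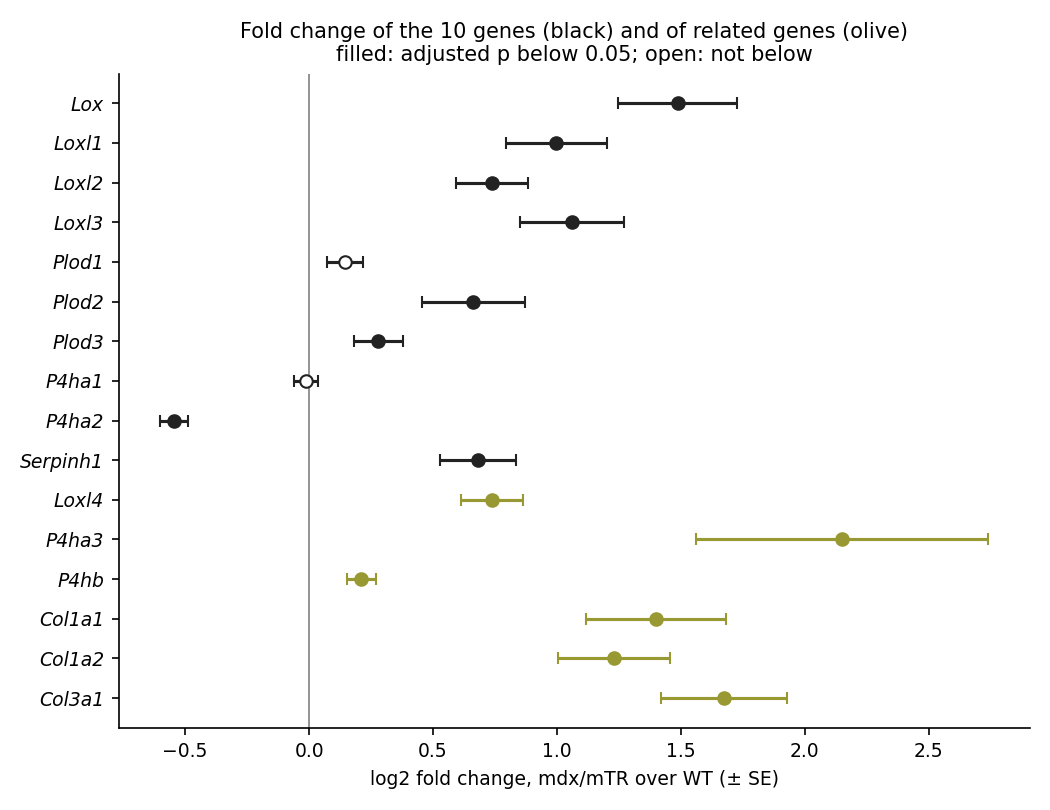
Difference between mdx/mTR and WT as a log2 fold change, with SE bars, for the 10 genes (black) and for Loxl4, P4ha3, P4hb and 3 fibrillar collagen genes (olive); filled points have an adjusted p below 0.05. Lox is the furthest right of the 10 at 1.49, P4ha2 is the one left of 0 and filled, and Plod1 and P4ha1 are open.

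The spread between libraries differed among the genes. In mdx/mTR the coefficient of variation was 51.7% for Lox, 39.9% for Loxl1 and 37.5% for Loxl3, against 11.7%, 10.9% and 20.02% in WT. Without mdx/mTR 5 the mdx/mTR means were 24.4 ± 3.30 CPM (Lox), 34.4 ± 9.36 CPM (Loxl1) and 8.16 ± 1.42 CPM (Loxl3, SD, n = 5 each). For Loxl2 and Plod2 the coefficient was lower in mdx/mTR (18.4% and 28.6%) than in WT (21.4% and 30.4%). P4ha1 and P4ha2 were tight in both groups, at 4.93% and 6.61% in mdx/mTR and 5.87% and 6.49% in WT. Library mdx/mTR 5 was the highest of its group for 6 of the 10 genes (Lox, Loxl1, Loxl3, Plod2, Plod3 and Serpinh1) and the lowest for both P4ha1 and P4ha2. The same library had the highest summed level of collagen and elastic fibre genes (8040 CPM), of tendon cell markers (407 CPM) and of macrophage markers (356 CPM) in its group; their part in its values was not tested.

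Levels of different genes were compared per kilobase of the longest coding transcript. In WT, Serpinh1 was first at 35.8 ± 5.88 CPM per kilobase, followed by P4ha2 (17.2 ± 1.12), Plod1 (17.04 ± 1.56) and P4ha1 (11.9 ± 0.701), and P4ha2 and Plod1 did not differ beyond their spread. Plod3 (6.30 ± 0.383) and Loxl1 (6.07 ± 0.663) came next, again within their spread, then Loxl2 (3.38 ± 0.725) and Lox (2.32 ± 0.271), while Loxl3 (1.11 ± 0.223) and Plod2 (1.10 ± 0.334) were last and within their spread. In mdx/mTR, Serpinh1 stayed first (57.5 ± 14.8), Plod1 was second (18.9 ± 1.80), Loxl1 (12.1 ± 4.84) lay beside P4ha1 (11.8 ± 0.583) and P4ha2 (11.8 ± 0.779), and Lox (6.50 ± 3.36) beside Plod3 (7.66 ± 1.38). The order depends on the length used: per kilobase of coding sequence Lox was 8.91 in WT, above Loxl2 (7.72), and P4ha1 (30.1) was above P4ha2 (24.3).

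Whether the processing genes kept pace with their substrate was examined with counts relative to the summed counts of Col1a1, Col1a2 and Col3a1, which encode the chains of fibrillar collagens I and III. These ratios do not depend on the scaling between libraries, but all 10 share the denominator. In mdx/mTR 9 of the 10 ratios were lower than in WT by a two-sided exact permutation test (adjusted over 20 ratios, p 0.0371 or less), and that of Lox did not pass. Collagen transcripts therefore rose by more than those of 9 of these genes, including 6 that rose themselves. How many of all tested genes have a lower ratio to collagen was not computed. A gene of unchanged level, such as P4ha1, also has a lower ratio when collagen transcripts rise. The median log2 fold change over all tested genes was 0.01, so a lower ratio is not particular to these genes.

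P4ha2 had 35.0 counts per 1000 fibrillar collagen counts in WT (geometric mean, 20.8 to 53.6) and 8.74 in mdx/mTR (4.92 to 12.4), which is 24.96% of the WT ratio. P4ha1 went from 43.4 (26.7 to 66.3) to 15.7 (9.06 to 22.4), or 36.1%, and Plod1 from 49.6 (37.4 to 67.04) to 19.99 (12.5 to 25.5), or 40.3%. Plod3 was at 43.8%, Serpinh1 at 57.6%, Plod2 at 57.98% and Loxl2 at 61.1% of the WT ratio. For these 7 genes no library of one group reached into the range of the other (exact permutation p 0.00216, the smallest this design can give, adjusted p 0.0054). The 7 include Plod1 and P4ha1, whose own fold changes did not pass. Col3a1, part of the shared denominator, itself separated the groups (326 to 720 CPM in WT, 1061 to 2502 CPM in mdx/mTR). A separated ratio therefore does not by itself show a change of the gene in its numerator. The share of all tested genes whose ratio to collagen separates the groups was not computed.

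Loxl1 stood at 68.8% of its WT ratio to collagen (exact permutation p 0.0108, adjusted p 0.0241) and Loxl3 at 73.6% (exact permutation p 0.0260, adjusted p 0.0371), and for both the groups overlapped. The Loxl3 call was lost in 10 of the 12 fits that left out 1 library, all but those without WT 2 or WT 4 (adjusted p up to 0.0742). With Col1a1 alone as the substrate neither passed (adjusted p 0.0633 and 0.110). Lox had 9.85 counts per 1000 collagen counts in WT (6.75 to 13.7) and 9.32 in mdx/mTR (5.23 to 12.6), a log2 difference of -0.08 ± 0.24 (SE, exact permutation p 0.760). Its sign was positive with Col1a1 alone (0.0166), without WT 1 (0.0160) and without mdx/mTR 2 (0.0874).

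**Figure D3:**
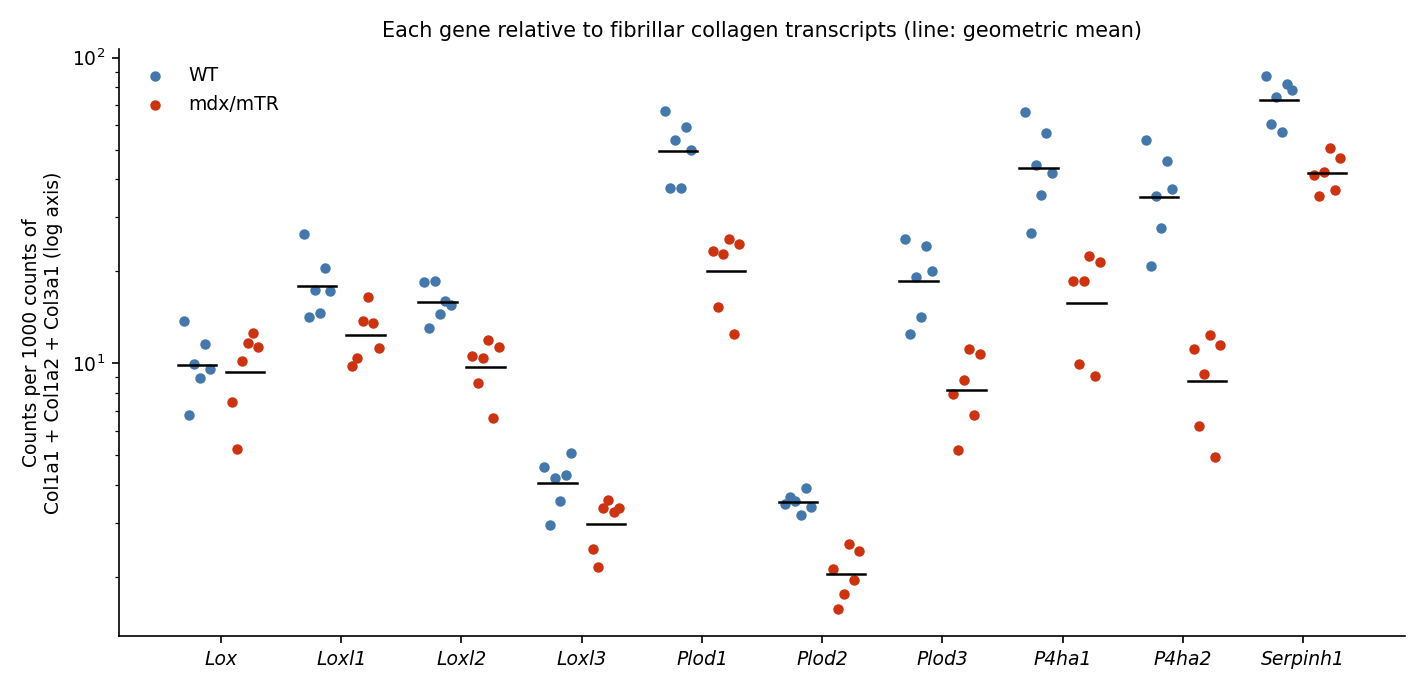
Counts of each gene per 1000 summed counts of Col1a1, Col1a2 and Col3a1 in every library (points; log axis; line, geometric mean) for WT (blue) and mdx/mTR (red). The 2 groups interleave for Lox (9.85 and 9.32), and lie furthest apart for P4ha2 (35.0 and 8.74).

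Ratios between genes of a family were compared in the same way, over 10 pairs. P4ha2 had 0.807 counts for each count of P4ha1 in WT (0.777 to 0.884) and 0.557 in mdx/mTR (0.495 to 0.627), without overlap (log2 difference -0.53 ± 0.06 SE, exact permutation p 0.00216, adjusted p 0.0054). This call held in all 12 fits that left out 1 library. Plod2 relative to Plod1 was 0.0708 in WT and 0.102 in mdx/mTR (log2 difference 0.53 ± 0.19 SE, exact permutation p 0.0173, adjusted p 0.0315), with overlap. Plod3 to Plod1 (0.12 ± 0.11 SE, exact permutation p 0.353) and Plod2 to Plod3 (0.41 ± 0.19 SE, exact permutation p 0.0606, adjusted p 0.0808) did not pass, and the latter passed without WT 2 (0.53, adjusted p 0.0144).

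Within the lysyl oxidases, the counts of Loxl1, Loxl2 and Loxl3 relative to Lox were 72.7%, 64.6% and 77.8% of their WT ratios (adjusted exact permutation p 0.0260, 0.0371 and 0.0325), all with overlap. These calls were not stable to the loss of 1 library. Loxl1 to Lox did not pass without mdx/mTR 4, 5 or 6 (adjusted p up to 0.0519), and Loxl2 to Lox passed only without mdx/mTR 1 or 2. Loxl3 to Lox did not pass without WT 2, 3 or 6 or mdx/mTR 3, 4, 5 or 6, and Plod2 to Plod1 did not pass without WT 1, 3, 5 or 6 or mdx/mTR 4, 5 or 6 (adjusted p up to 0.0649 and 0.0630). The log2 differences kept their sign in all these fits, from -0.76 to -0.29 for the 3 Lox pairs and from 0.40 to 0.62 for Plod2 to Plod1. Pairs of Loxl1, Loxl2 and Loxl3 with each other did not pass (exact permutation p 0.145 to 0.426, log2 differences 0.17, -0.10 and -0.27 with SE 0.19, 0.13 and 0.18).

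**Figure D4:**
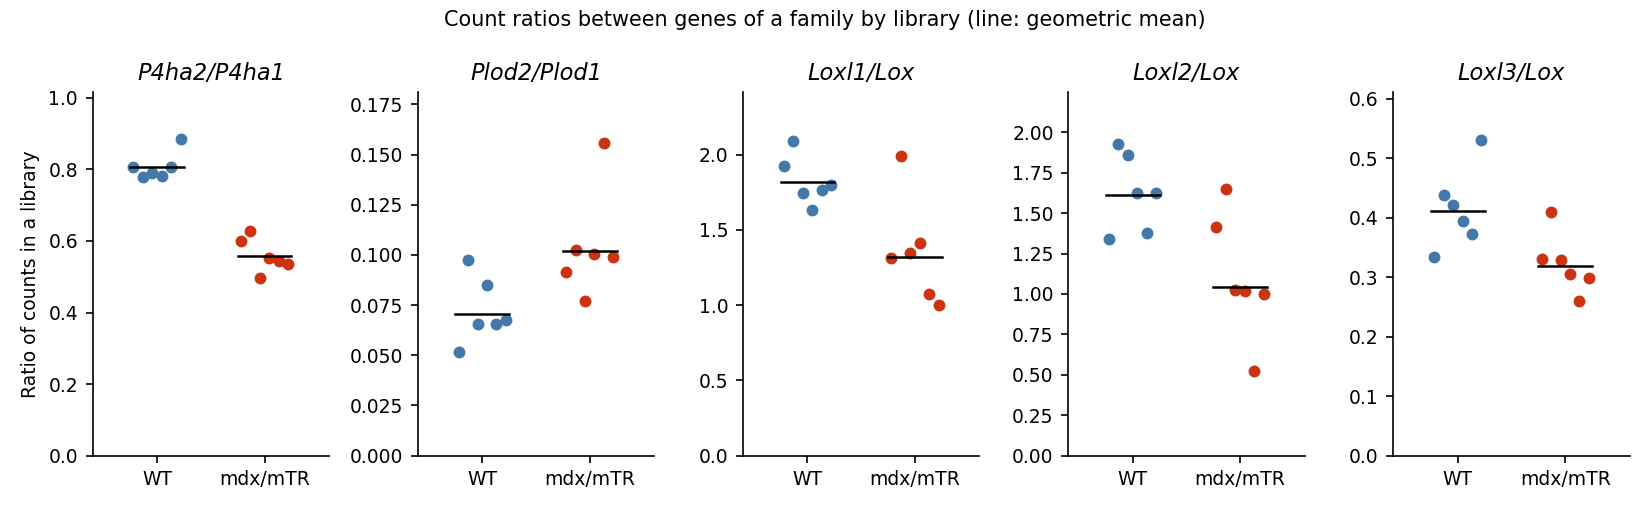
Ratio of counts between 2 genes of a family in each library (points; line, geometric mean) for the 5 pairs with an adjusted p below 0.05. The P4ha2 to P4ha1 ratio separates the groups (0.777 to 0.884 in WT, 0.495 to 0.627 in mdx/mTR), and the other 4 pairs overlap.

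Among 20 further collagen-modifying enzymes and chaperones of the endoplasmic reticulum, 11 rose, 1 fell and 8 did not pass (median log2 fold change 0.22). For this list and all those that follow, the background is again 25.0% higher and 23.4% lower among all tested genes. The prolyl 3-hydroxylation gene Crtap (7.11 ± 1.24 to 12.9 ± 3.10 CPM, log2 fold change 0.86) and P3h3, by name of the prolyl 3-hydroxylase family (6.74 ± 1.09 to 11.1 ± 2.20 CPM, 0.72), rose without overlap (edgeR adjusted p 4.2e-04 and 7.4e-04). So did Ppib (0.57), the cyclophilin that partners Crtap, and Fkbp10 (1.07), a prolyl isomerase that assists telopeptide lysyl hydroxylation (edgeR adjusted p 9.8e-04 and 0.0013). Sparc, a collagen-binding glycoprotein, went from 428 ± 107 to 665 ± 161 CPM (0.64, edgeR adjusted p 0.0092). The general chaperones Hspa5, Hsp90b1, Calr and Canx did not pass (edgeR adjusted p 0.255 to 0.628).

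Of the 13 tested procollagen proteases and secretion genes, 6 rose, 2 fell and 5 did not pass (median 0.37). Bmp1, the procollagen C-proteinase that also activates the lysyl oxidase precursor, went from 30.7 ± 2.36 to 46.4 ± 5.85 CPM (log2 fold change 0.60, edgeR adjusted p 5.6e-05). Its enhancer Pcolce rose by 0.80, and the N-proteinases Adamts2 and Adamts14 by 0.70 and 1.48 (edgeR adjusted p 1.3e-04, 9.6e-05 and 1.1e-05). The groups did not overlap for these 4 genes. Of 2 genes of procollagen export named here, Mia3, whose product loads procollagen at the exit sites of the endoplasmic reticulum, fell from 244 ± 16.8 to 155 ± 9.20 CPM (-0.65, edgeR adjusted p 1.9e-06), and the coat gene Sec24d, chosen after its values were seen, rose from 10.003 ± 1.31 to 18.3 ± 3.73 CPM (0.87, edgeR adjusted p 9.3e-05).

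Of 17 genes for substrates and their partners in collagen and elastic fibres, 13 rose, 0 fell and 4 did not pass (median 0.95). Col3a1 went from 518 ± 159 to 1654 ± 642 CPM (log2 fold change 1.67 ± 0.25 SE), Col1a1 from 269.9 ± 94.7 to 712 ± 321 CPM (1.40 ± 0.28) and Col1a2 from 368 ± 107 to 864 ± 297 CPM (1.23 ± 0.23), with edgeR adjusted p 1.5e-04, 0.0012 and 6.2e-04. Col5a2 (1.43) and Col5a3 (0.95) rose as well (edgeR adjusted p 1.5e-04 each). Elastin, the other substrate of lysyl oxidases, had 37.1 ± 10.5 CPM (WT) and 46.5 ± 10.6 CPM (mdx/mTR) and did not pass (Eln, 0.33 ± 0.19 SE, edgeR adjusted p 0.168). Other crosslinking enzymes gave 2 of 3 tested genes higher: F13a1, a transglutaminase, rose by 0.92 (edgeR adjusted p 0.0011) and Pxdn, which links collagen IV, by 0.55 (edgeR adjusted p 0.0300). The Pxdn call was lost in 6 of the 12 fits without 1 library, those without WT 1, 3, 5 or 6 or mdx/mTR 2 or 5 (0.42 to 0.52, edgeR adjusted p up to 0.0750). Tgm2, the tissue transglutaminase, was at 0.16 (edgeR adjusted p 0.129) and passed with library totals alone (0.32, edgeR adjusted p 0.0126).

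Several of the 10 genes are known targets of hypoxia-inducible factors, and 16 other genes induced by hypoxia were counted. Of these, 3 rose, 4 fell and 9 did not pass (median -0.02), beside 25.0% higher and 23.4% lower among all tested genes. A part of hypoxia in the changes of the 10 genes was not tested. The smallest p-values were falls of Egln1, a prolyl hydroxylase that marks the factor for degradation (423 ± 16.8 to 290 ± 40.01 CPM, -0.55), and of Pdk1 (90.9 ± 2.47 to 65.99 ± 7.71 CPM, -0.46), followed by a rise of Ankrd37 (1.33 ± 0.312 to 2.11 ± 0.350 CPM, 0.66), with edgeR adjusted p 1.3e-04, 1.3e-04 and 0.0054. Of 10 genes of the transforming growth factor beta axis, which induces matrix genes, 5 rose, 1 fell and 4 did not pass (median 0.24). Tgfb1 rose from 6.94 ± 1.08 to 13.99 ± 4.27 CPM (1.01, edgeR adjusted p 3.8e-04) without overlap. Tgfbr2 rose by 0.44, Ctgf by 0.63 and Postn, a matrix protein, by 2.33 (edgeR adjusted p 0.0025, 0.0131 and 0.0071), all with overlapping groups. The Postn value was 1.66 without mdx/mTR 5 (edgeR adjusted p 0.0172), which held 307 CPM against 42.4 to 151 CPM in the other 5.

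**Figure D5:**
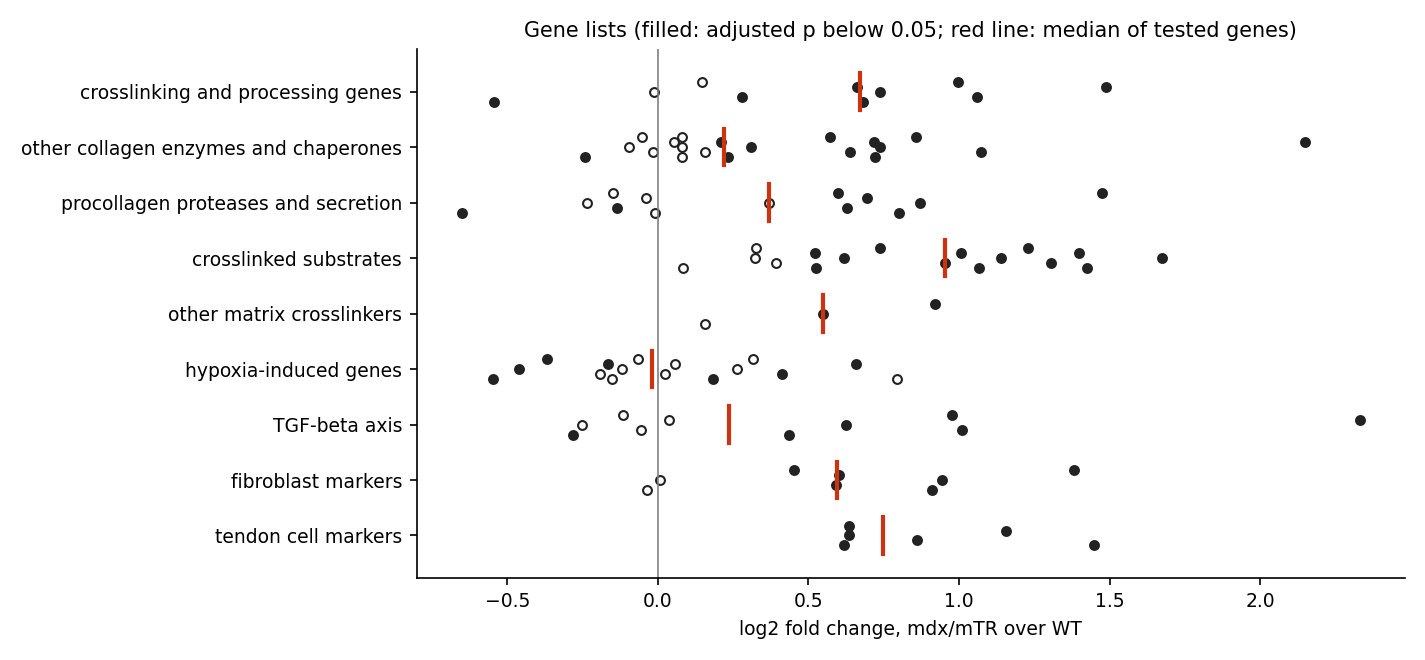
log2 fold change of every tested gene (points, filled where the adjusted p is below 0.05) in the list of 10 genes, 6 related lists and 2 lists of cell type markers, with the median as a red line. The median is 0.67 for the 10 genes, 0.95 for the collagen and elastic fibre genes and -0.02 for the hypoxia-induced genes.

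Markers of several cell types also differed between the groups, some lists being higher and others lower in mdx/mTR. The sample was skeletal muscle by its markers: the 8 fibre genes summed to 148172 to 177941 CPM in the WT libraries, against 116409 to 163033 CPM in mdx/mTR, with Myh4 the most abundant. Of these 8, 1 rose, 2 fell and 5 did not pass. Of 8 fibroblast markers 6 rose, and their sum, mostly Dcn, was 532 to 679 CPM in WT and 829 to 1009 CPM in mdx/mTR, 1.53 times higher on average. All 6 tendon cell markers rose (sums of 85.9 to 135 and 178 to 407 CPM, Thbs4 the most abundant), as did all 8 macrophage markers (51.4 to 83.03 and 120 to 356 CPM, Csf1r the most abundant). Beside the fall of P4ha2, to 0.685 of its WT mean, stood the sums of Schwann cell markers at 0.603 of theirs (5 of 5 lower), of endothelial markers at 0.812 (4 of 6 lower), of fibre markers at 0.830 and of mural cell markers at 0.879 (3 of 6 lower, 1 higher). No listed marker was at 0 in all 12 libraries. The part of cell makeup in the changes of the 10 genes was not tested.

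In the authors' deposited table, made from the same counts, the 8 genes that passed here have an adjusted p of 0.0210 or less and Plod1 (0.140) and P4ha1 (0.770) do not pass. The log2 fold change in the authors' deposited table is 1.35 for Lox, -0.55 for P4ha2 and 0.64 for Serpinh1.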

How the data were processed

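The authors deposited whole-number counts per gene symbol, 1 column per library, and a table of their own comparison with these columns, per the file headers: the mean signal after normalization, the log2 fold change and its error, a score from the test, and raw and adjusted p-values. The submitters' processing notes name FastQC, STAR, DESeq2 and the build mm10; versions, counter and strand handling are not given in the sources used here. Columns were matched to samples by title, and 0 were left unmatched.

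Counts were tested as deposited in edgeR 4.0.16 (R 4.3.3): filterByExpr, TMM scaling, quasi-likelihood model with group as its only term, Benjamini-Hochberg adjustment over all 13937 genes, threshold 0.05. SE is the log2 fold change divided by the square root of F; intervals use 10 degrees of freedom. Ratios are log2 of counts with 0.5 added, tested by exact permutation (scipy 1.17.1) over 20 ratios. Lengths, coordinates and shared 50-base stretches came from GENCODE M21. Scripts were tested on simulated data. Named were the 10 genes, Dmd, the 3 genes of smallest p in each other list, the most abundant marker of the cell types described, and Loxl4, P4ha3, P4hb, Col1a1, Col1a2, Col3a1, Ctgf and Tgfb1; Ppib, Fkbp10, Pcolce, Adamts2, Sec24d, Eln, Sparc and the general chaperones were chosen after their values were seen. Members and lists were chosen with earlier results of these data known. Alternatives were other filters, scalings, DESeq2 1.42.0, limma-voom (limma 3.58.1), a replicate block, leaving out libraries, and 0.01 as threshold. Every pair of libraries of a group differed by more than sampling noise.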

Additional observations from a re-analysis of the deposited data

Results flagged for a closer look

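In 120 groups of 6 values the distance of the most extreme library from the nearest other one was divided by the whole range, and 11 exceeded Dixon's critical value, where chance gives about 1 in 20, or 6.0; the values are not independent. Library mdx/mTR 5 was far above the other 5 for Lox (62.8 CPM against 19.3 to 28.3), Loxl3 (16.3 against 6.40 to 9.87 CPM), Plod3 (33.9 against 20.5 to 24.7 CPM), P4ha3 (2.92 against 0.401 to 1.04 CPM) and Crtap (18.7 against 10.6 to 13.5 CPM), and for the ratio of Plod2 to Plod1 (0.156 against 0.0769 to 0.103). Library WT 2 was lowest for P4ha2 (34.4 against 38.8 to 41.4 CPM) and highest for Pxdn (70.5 against 34.3 to 47.3 CPM) and Tgfb1 (9.04 against 6.19 to 7.13 CPM). WT 4 was highest for Ctgf (29.3 against 13.6 to 18.9 CPM), and WT 6 for the ratio of P4ha2 to P4ha1 (0.884 against 0.777 to 0.808). What sets these libraries apart was not tested.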

How the results depend on the processing

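For the 10 genes, 201 of 210 alternative values kept direction and side of the threshold. Plod1 passed with library totals alone (0.304). The sign of P4ha1 was positive with a filter of 1 CPM in 6 libraries (0.00214), upper quartile scaling (0.0290) and library totals alone (0.143), and its values without 1 library ran from -0.0366 to 0.0147; those of Plod3 ran from 0.173 to 0.331. Among 30 other named genes 622 of 629 values kept direction and call and 0 reversed. At an adjusted p below 0.01, the counts were 1 for other matrix crosslinkers, 4 for hypoxia-induced genes and 3 for the transforming growth factor beta axis. Without 1 library, 1 to 2 crosslinkers passed. Of the ratios within families 5 passed, 1 to 5 without 1 library, and 3 without both mdx/mTR 5 and WT 2, an alternative chosen after seeing the data. The ratio of Lox to collagen was -0.189 to 0.0874 without 1 library and 0.0166 with Col1a1 alone.

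Same-numbered libraries had correlated deviations above 0.1 in 2 of 6 pairs (-0.139 to 0.334). Differently numbered libraries were not compared in this way, so these values cannot settle whether the numbers pair the libraries. With a replicate block 8 of the 10 genes passed in edgeR. Paired sign-flip tests passed 0 ratios within families and 0 ratios to collagen, with 12 of the 20 ratios at the smallest p that 6 pairs can give, 0.03125, which the adjustment took to 0.0521. A count of 3, the limit that a count of 0 allows, is 0.0460 to 0.0837 CPM, and covers counting error only.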
